A study of Mus musculus with 106 samples.

Results

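All 39 mouse Hox genes were examined here across 11 tissues, first for their level in mice kept at 22 °C and then for their difference in mice kept at 10 °C or 34 °C. The members were found by symbol, as every gene of the Hoxa, Hoxb, Hoxc and Hoxd clusters that carries a number, and all 39 were present in each of the 4 deposited count tables, the largest of which lists 21647 genes. Hox genes encode homeodomain transcription factors and lie in clusters in which gene order follows the position along the head-to-tail axis where each gene is first used. Genes with the same number in different clusters form a paralog group, with low numbers used toward the head and high numbers toward the tail. Adult fibroblasts, fat cell precursors, muscle and spinal neurons keep much of this embryonic pattern, so a Hox profile is often read as a record of where a tissue came from.

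The mice were wild-type C57BL/6J males. Per the study's methods those of the cold experiment came from Janvier and those of the warm one from Charles River. Mice at 10 °C spent 2 weeks there after 5 days each at 18 °C and 14 °C, mice at 34 °C spent 4 weeks there, and each experiment had its own controls at 22 °C. Labels give an age of 11 weeks for the cold experiment and 12 weeks for the warm one and for all quadriceps libraries. The cold experiment covered interscapular brown adipose tissue (iBAT), inguinal subcutaneous adipose tissue (ingSAT), perigonadal visceral adipose tissue (pgVAT), ileum, liver, spleen, brain, hypothalamus and quadriceps with 3 libraries at each temperature, spinal cord with 5 and bone marrow with 6. The warm experiment covered iBAT, quadriceps, ileum, liver and brain with 3 libraries at each temperature. Quadriceps had 6 libraries at 22 °C that the labels do not divide between the experiments. The study's printed means for muscle at 22 °C equalled those of 3 of these libraries in 1999 of 1999 genes compared. These 3 share a column prefix with the 10 °C libraries, and the other set matched in 12 genes. They are the likely controls of the cold experiment, but all 6 were used here for both temperatures. Per the study's methods most libraries pool a pair of mice, while spinal cord and bone marrow come from single mice. The 106 libraries held between 4262403 and 62880248 counts, and the smallest was from pgVAT at 22 °C. These are bulk tissues, so fewer cells of a type and less RNA per cell cannot be told apart.

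The Hoxa cluster holds 11 genes on chromosome 6 (GRCm38, 52155590 to 52260880, minus strand) and the Hoxb cluster 10 on chromosome 11 (96194316 to 96368256, plus strand). The Hoxc cluster holds 9 genes on chromosome 15 (102921103 to 103036852, plus strand) and the Hoxd cluster 9 on chromosome 2 (74668310 to 74765142, plus strand). All 39 genes have a homeobox of 180 coding bases, which was read here from the GENCODE M21 transcripts. The sequences of 5 members that lead in one tissue or move in the results are shown so that paralogs can be compared. Capitals mark the 6 codons at the centre of the recognition helix, the part of the homeodomain that lies in the major groove of DNA.
Hoxa5: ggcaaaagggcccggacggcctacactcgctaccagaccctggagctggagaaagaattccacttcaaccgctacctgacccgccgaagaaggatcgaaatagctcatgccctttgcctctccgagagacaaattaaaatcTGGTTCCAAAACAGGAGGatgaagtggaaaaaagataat
Hoxc8: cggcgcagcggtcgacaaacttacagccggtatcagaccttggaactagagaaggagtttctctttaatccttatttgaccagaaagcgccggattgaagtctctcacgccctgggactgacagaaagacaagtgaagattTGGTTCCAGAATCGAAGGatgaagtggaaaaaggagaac
Hoxb9: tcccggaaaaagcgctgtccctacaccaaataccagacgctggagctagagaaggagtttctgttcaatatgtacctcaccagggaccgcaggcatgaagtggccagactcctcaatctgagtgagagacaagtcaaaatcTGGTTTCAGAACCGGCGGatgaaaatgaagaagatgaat
Hoxa10: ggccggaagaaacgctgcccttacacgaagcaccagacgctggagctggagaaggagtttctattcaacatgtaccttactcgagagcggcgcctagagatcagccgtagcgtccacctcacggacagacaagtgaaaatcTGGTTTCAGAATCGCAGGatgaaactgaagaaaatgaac
Hoxc10: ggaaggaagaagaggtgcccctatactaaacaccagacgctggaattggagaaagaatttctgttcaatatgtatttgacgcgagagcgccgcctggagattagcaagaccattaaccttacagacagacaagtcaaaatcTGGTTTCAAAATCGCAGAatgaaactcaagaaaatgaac

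Hoxa10 and Hoxc10, from the same paralog group, shared 145 of the 180 homeobox bases (80.6%). Across all members the identity within a paralog group had a median of 80.6% over 42 pairs, against 60.6% over the 699 other pairs. Despite this likeness 31 of the 39 genes shared no stretch of 50 bases, the read length of part of the series, with another Hox gene. The exceptions that matter here are Hoxd3 and Hoxd4, which share 339 such stretches, and Hoxc5 and Hoxc10, which share 119. These pairs overlap in annotated exons on the same strand, so reads there may be assigned to neither gene or to the wrong one, and the values of these genes are less certain than the rest. Hoxd3 and Hoxd4 also share 53.1% and 39.1% of their exon bases with the gene Gm28230 on the same strand. Hoxa2 shares 15% with Gm28308 in the same way. Hoxb3 shares 52.9% of its exon bases with the antisense gene Hoxb3os and Hoxa11 shares 35% with Hoxa11os, and for the largest table the handling of strand was not given in the sources used here.

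At 22 °C the summed Hox level was highest in spinal cord and lowest in hypothalamus among the tissues of the cold experiment and quadriceps. Levels are compared between genes as reads per kilobase of exon, scaled by the total count of the library (RPKM), and a gene is counted as expressed at a mean of 1 CPM, counts scaled to a common library total. Summed over the 39 genes, spinal cord reached 351.9 ± 21.4 RPKM (SD, n = 5), pgVAT 166.4 ± 11.2 (n = 3), ingSAT 107.8 ± 7.37 (n = 3), ileum 81.4 ± 9.74 (n = 3), quadriceps 76.1 ± 3.82 (n = 6) and iBAT 65.3 ± 5.15 (n = 3). Spleen (11.2 ± 1.89), brain (7.87 ± 3.22), bone marrow (6.94 ± 0.996) and liver (2.35 ± 0.657) were far lower, and hypothalamus held 0.344 ± 0.126. The libraries of ileum (71.3 to 90.8 RPKM) and quadriceps (71.5 to 82.8) overlapped, and those of iBAT (61.3 to 71.1) ended just below both. Brain overlapped both spleen and bone marrow, so its place in the order is not resolved. Per the study's methods spinal cord and bone marrow libraries were made with another kit than the tissues of the largest table. Quadriceps was sequenced at the same site as spinal cord and bone marrow, but its kit is not clear for all libraries. The order across the tables is therefore a description only.

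Of the 39 genes, 32 were expressed in spinal cord, 29 in pgVAT, 26 in ingSAT, 21 in iBAT, 18 in ileum, 15 in quadriceps, 8 in spleen, 8 in brain, 5 in bone marrow, 2 in liver and 0 in hypothalamus. Hoxa5 and Hoxb3 were expressed in 9 of the 11 tissues, the widest of all members. Hoxd1 passed the limit in spinal cord alone. Hoxa13, Hoxb1, Hoxb13, Hoxc12, Hoxc13, Hoxd12 and Hoxd13 passed it in none, and 4 of these 7 belong to the last paralog group. In hypothalamus 30 of the 39 genes had no count in any of the 3 libraries.

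**Figure D1:**
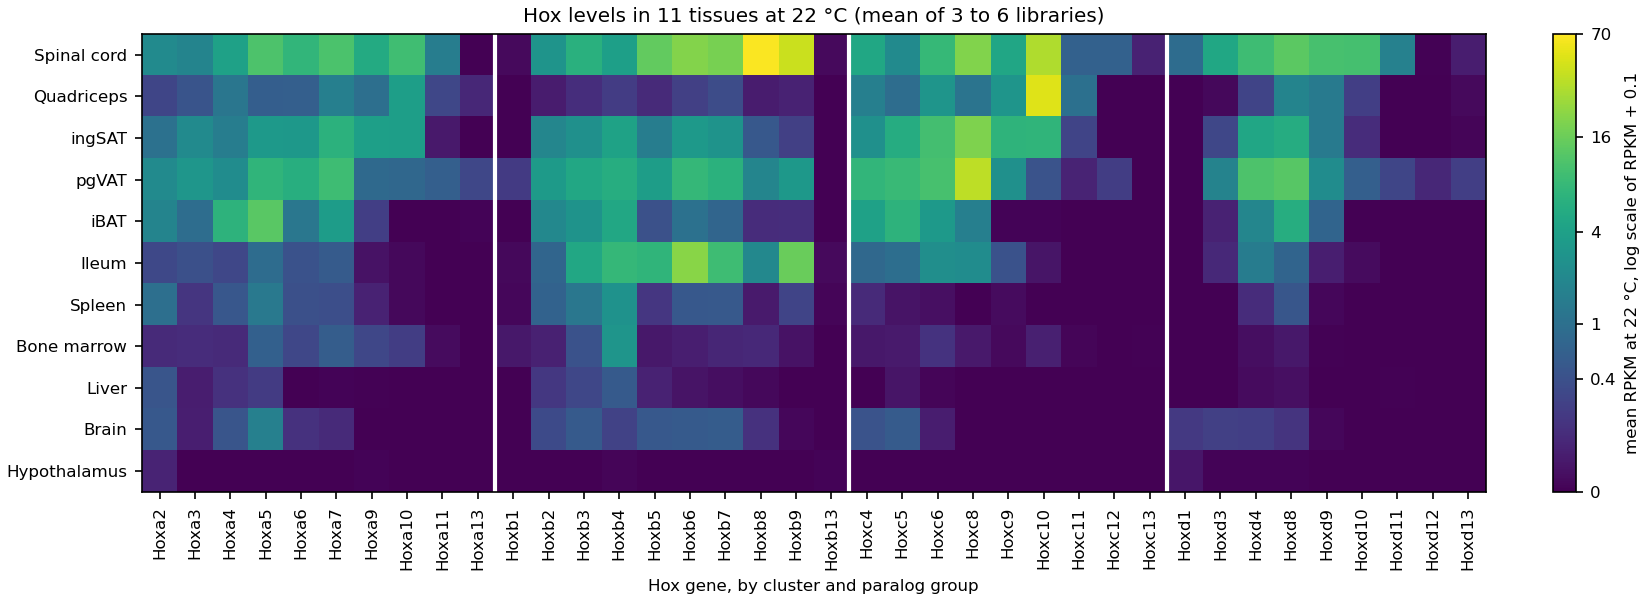
Mean RPKM of the Hox genes (columns, by cluster and paralog group) in 11 tissues at 22 °C (rows), on a log colour scale of RPKM + 0.1. Spinal cord is bright along all 4 clusters, iBAT fades after paralog group 8, ileum is bright in Hoxb, and in quadriceps Hoxc10 stands alone at 50.4 RPKM.

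Each tissue had its own leading genes. In iBAT, the brown fat between the shoulder blades, the highest were Hoxa5 (12.9 ± 0.147 RPKM, n = 3), Hoxa4 (6.85 ± 0.294) and Hoxc5 (6.81 ± 1.19), all members of paralog groups 4 and 5. The separate iBAT controls of the warm experiment had the same 3 at the top, with Hoxa4 at 13.6 RPKM, Hoxa5 at 11.5 ± 1.26 and Hoxc5 at 6.22. In ingSAT, which lies at the level of the hind limb, Hoxc8 (19.5 RPKM), Hoxc6 (9.77) and Hoxc10 (7.11) led. In pgVAT, the abdominal fat beside the epididymis, Hoxc8 led at 36.8 RPKM, followed by Hoxd8 (12.7) and Hoxd4 (11.3). In quadriceps, a hind limb muscle, Hoxc10 alone reached 50.4 ± 6.15 RPKM (n = 6), with Hoxa10 next at 3.82 ± 0.611 and Hoxc9 at 2.95 ± 0.338. Spinal cord, which runs the length of the trunk, was led by Hoxb8 (66.5 RPKM), Hoxb9 (41.6) and Hoxc10 (31.7).

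The ileum, part of the small intestine, drew 84.9 ± 1.49% of its summed Hox RPKM from the Hoxb cluster, with Hoxb6 at 21.6 ± 1.69 RPKM, Hoxb9 at 15.7 ± 2.58 and Hoxb7 at 8.97 ± 0.840 (n = 3). The ileum controls of the warm experiment gave 87.6 ± 3.63% from Hoxb, with Hoxb9 (16.5 ± 3.06 RPKM) ahead of Hoxb6 (9.48 ± 2.15). Quadriceps drew 80.0 ± 3.33% from Hoxc and 1.70 ± 0.546% from Hoxb. Blood-forming tissues were led by Hoxb4, a gene known for its part in blood stem cells, at 2.94 RPKM in bone marrow and 2.72 RPKM in spleen, and liver also had Hoxb4 on top at 0.547 RPKM. In brain Hoxa5 led at 1.65 ± 0.759 RPKM.

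The share of summed Hox RPKM from paralog groups 9 to 13, the tailward genes, was 80.4 ± 3.06% in quadriceps, 33.2 ± 5.29% in spinal cord, 22.2 ± 2.05% in ingSAT, 19.3 to 21.3% in ileum, 7.62 ± 2.55% in pgVAT and 1.72 ± 0.404% in iBAT. The libraries of quadriceps (76.5 to 85.4%) did not overlap those of any other tissue listed here. Among the 3 fat depots of one table this share therefore ran from iBAT through pgVAT to ingSAT, while the number of expressed genes ran from iBAT through ingSAT to pgVAT.

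Between ingSAT and iBAT at 22 °C, 17 of the 24 Hox genes tested were called, where a call between tissues means an adjusted p under 0.05 by edgeR's quasi-likelihood test and a fold above 1.5. The same rule called 44.2% of all genes tested in this comparison, since the depots differ widely. Of the 17, 13 were higher in ingSAT (24.4% of all genes were) and 4 were lower (19.8%). Groups did not overlap for 20 of the 24, against 60.2% of all genes. The median log2 difference of the 24 was 0.81, against 0.03 over all genes. Of the 13 called higher, Hoxa10, Hoxc9 and Hoxc10 were under 1 CPM in iBAT and passed the filter on low counts only through ingSAT, so they could be called in no other direction.

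The direction of the differences varied with the paralog group. Of groups 1 to 5, 3 genes were called higher in ingSAT and 4 lower of 12 tested, with a median log2 difference of -0.51. Of groups 6 to 8, 6 were called higher and 0 lower of 7, with a median of 1.31. Of the 5 tested of groups 9 to 13, 3 had passed the filter only through ingSAT, and of the remaining pair Hoxa9 was called higher and Hoxd9 was not called.

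Values below are TMM-scaled CPM within this comparison, given per library. Hoxa5, a gene that patterns the neck and upper trunk, was at 25.8, 27.3 and 27.2 CPM in iBAT and at 5.13, 5.77 and 6.33 in ingSAT. The ingSAT libraries sat far below (log2 difference -2.22 ± 0.16, SE, adjusted p = 2.7e-05). Hoxa4, its neighbour in the cluster, showed 11.3, 11.8 and 13 CPM in iBAT against 2.40, 2.05 and 2.07 in ingSAT (-2.47 ± 0.21, adjusted p = 5.1e-05). Hoxa2 (-1.06 ± 0.32) and Hoxc4 (-0.96 ± 0.18) were the other members called lower in ingSAT.

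Hoxc8, which patterns the lower trunk, went the other way, from 4.93, 4.95 and 4.98 CPM in iBAT to 39.4, 51.5 and 59.0 in ingSAT (log2 difference 3.33 ± 0.19, adjusted p = 1.3e-05). Hoxa9 rose from 2.01, 1.54 and 0.781 CPM in iBAT to 15.5, 25.8 and 18.9 in ingSAT (3.85 ± 0.36). Beyond group 9 the contrast was close to presence against absence. Hoxa10, whose homeobox is shown above, had no count in the 3 iBAT libraries and 9.33, 12.8 and 11.9 CPM in ingSAT, at least 60.1-fold higher when 3 counts per library are taken as the floor. Hoxc10 had 1 count in all of iBAT and 531 in ingSAT, a ratio of 571 with a 95% counting interval of 102 to 2.26e+04. Hoxc9 likewise had 1 count against 667, a ratio of 717 (128 to 2.84e+04). These intervals and floors cover counting error only.

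The iBAT libraries of this table carried skeletal muscle transcripts, with a sum of 7748 to 10789 CPM over 7 muscle markers, against 1102 to 2691 CPM in ingSAT. The brown adipocyte markers separated the depots as labelled, at 9289 to 15170 CPM in iBAT and 142 to 188 CPM in ingSAT. B cell markers of lymph nodes, 4 genes, summed to 28 to 191 CPM in ingSAT and 2.93 to 6.81 CPM in iBAT. The part of muscle and lymph node cells in the Hox differences was not tested.

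pgVAT against iBAT at 22 °C gave 20 called Hox genes of 27 tested, 18 higher and 2 lower in pgVAT, where 47.3% of all genes were called, 25.4% higher and 21.9% lower. Groups did not overlap for 20 of the 27, against 60.7% of all genes. Of the 18 called higher, 6 were under 1 CPM in iBAT and passed the filter only through pgVAT, which fixed their direction. They were Hoxd3, Hoxb8, Hoxb9, Hoxc9, Hoxa10 and Hoxa11, 4 of them from groups 9 to 13. Hoxc8 showed the largest level, from 5.08, 5.21 and 5.25 CPM in iBAT to 69.4, 116 and 87.7 in pgVAT (log2 difference 4.13 ± 0.23, adjusted p = 4.1e-06). Hoxb9 rose from 0.282, 0.473 and 0.463 CPM to 8.56, 6.80 and 5.98 (4.08 ± 0.39), and Hoxd3 from 0.376, 0.744 and 0.154 CPM to 8.34, 4.61 and 6.17 (3.93 ± 0.55). Hoxc9 had 1 count in iBAT and 200 in pgVAT, a ratio of 220 (39.1 to 8.74e+03). Hoxa4 (-1.98 ± 0.23) and Hoxa5 (-1.25 ± 0.17) were the 2 called lower, as in ingSAT, and both contrasts rest on the same 3 iBAT libraries.

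Hoxa10 had no count in iBAT and 4.64, 0.729 and 1.35 CPM in pgVAT, at least 17.1-fold higher, and Hoxa11 had none in iBAT and 3.15, 0 and 0.578 CPM in pgVAT, at least 10.9-fold higher in the pooled counts although 1 of the pgVAT libraries was also at 0. The same pgVAT library, replicate 1, was the highest for Hoxa10, Hoxa11, Hoxa13, Hoxd11 and Hoxd13. It also had the highest sum of the 8 epididymis and vas deferens markers among the controls, 2896 CPM against 999 and 894 CPM on the scale of the pgVAT comparison. The part of epididymal RNA in these values was not tested.

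Between pgVAT and ingSAT, both white depots, fewer genes differed, 12 of the 28 Hox genes tested against 8.87% of all genes (5.46% higher and 3.41% lower in pgVAT). Groups did not overlap for 21 of 28, against 26.2% of all genes. The 9 members called higher in pgVAT included Hoxb9 (9.70, 7.87 and 6.87 CPM against 0.663, 0.354 and 0.874, log2 difference 3.68 ± 0.42, adjusted p = 0.0033) and Hoxd3 (9.45, 5.34 and 7.09 CPM against 1.23, 1.06 and 1.55, 2.51 ± 0.37). Hoxb8 (1.86 ± 0.36), Hoxc4 (1.48 ± 0.21) and Hoxd4 (1.25 ± 0.15) followed, with Hoxa5 (1.08 ± 0.21), Hoxb3, Hoxb6 and Hoxd8 making up the rest.

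The 3 members called lower in pgVAT were all of groups 9 and 10. Hoxc10 stood at 0.663, 0.422 and 1.33 CPM in pgVAT and at 16.3, 13.9 and 11 in ingSAT (log2 difference -4.20 ± 0.41, adjusted p = 0.0019). Hoxa9 was at 6.17, 4.36 and 3.32 CPM against 17.1, 28.5 and 20.9 (-2.21 ± 0.30), and Hoxc9 at 5.10, 6.04 and 7.53 against 18.2, 18.9 and 14 (-1.48 ± 0.24). Hoxa10 was lower in every pgVAT library too, 5.26, 0.843 and 1.55 CPM against 10.3, 14.1 and 13.1, but missed the limit (adjusted p = 0.0574). Genes of the same paralog group took opposite directions between these depots, with Hoxb9 higher in pgVAT and Hoxa9 and Hoxc9 higher in ingSAT. Hoxb9 averaged under 1 CPM in ingSAT and Hoxc10 under 1 CPM in pgVAT. Each passed the filter on low counts only through the other depot, which fixed its direction. All 8 epididymis and vas deferens markers were higher in pgVAT without overlap (26.2% of all genes), and 3 of them were called (5.46%). All 7 muscle markers and 4 of 5 stromal markers were called lower in pgVAT (3.41% of all genes). The part of epididymal, muscle and stromal RNA in these Hox differences was not tested.

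**Figure D2:**
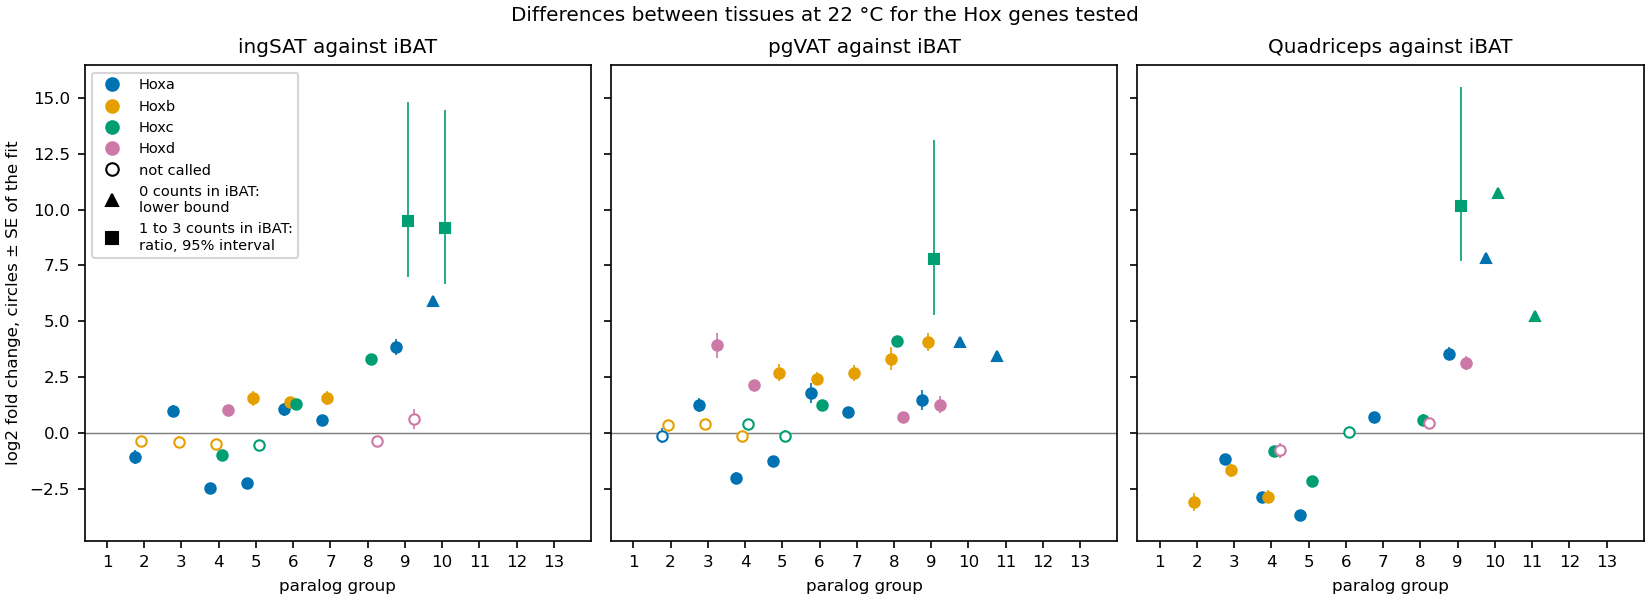
Log2 fold change at 22 °C (y axis) of the tested Hox genes by paralog group (x axis) and cluster (colour) for ingSAT, pgVAT and quadriceps against iBAT. Circles carry the SE of the fit, triangles are lower bounds for genes with 0 counts in iBAT, squares are count ratios with 95% intervals for genes with 1 to 3 counts, and open symbols were not called. All triangles and squares are genes of groups 9 and above that passed the filter only through the other tissue, and Hoxa4 and Hoxa5 lie below 0 in all 3 panels.

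The same contrasts in the mice kept at 10 °C, which share no library with those at 22 °C, gave like pictures for 2 of the 3 pairs. For ingSAT against iBAT 16 of 25 were called (44.5% of all genes), and 15 of these were among the 17 called at 22 °C, in the same direction. For pgVAT against iBAT 19 of 26 were called (38.3% of all genes), 16 of them also at 22 °C. For pgVAT against ingSAT 2 of 27 were called (1.27% of all genes), Hoxc10 and Hoxa10, both lower in pgVAT (0.65% of all genes were), and all 12 genes called at 22 °C kept their sign at 10 °C. The count of 2 depends on the pgVAT libraries described below: it was 16 without pgVAT at 10 °C replicate 2, 0 without replicate 1 or replicate 3, and 4 without both of the latter, where the 1 cold pgVAT library left is assumed to vary like the other group. It was also 1, 1 and 0 without ingSAT replicates 1, 2 and 3. The count of 19 for pgVAT against iBAT was 12 without pgVAT replicate 1 and 6, 4 and 5 without iBAT replicates 1, 2 and 3. At 10 °C too, some called genes were under 1 CPM in the lower depot and could be called in no other direction. They were 5 for ingSAT against iBAT, 6 for pgVAT against iBAT and 1 for pgVAT against ingSAT.

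Quadriceps and the iBAT of the warm experiment shared a table and could be compared at 22 °C. Of 19 Hox genes tested 16 were called, 8 higher and 8 lower in quadriceps, where 60.7% of all genes were called (30.1% higher and 30.6% lower), and groups did not overlap for 16 of the 19 (70.3% of all genes). Scaling by library size alone moved the median of all genes by -0.60 on the log2 scale and changed the split to 6 higher and 9 lower. The filter fixed the direction of 9 of these calls: Hoxa9, Hoxc9, Hoxd9, Hoxa10, Hoxc10 and Hoxc11, called higher, were under 1 CPM in iBAT, and 3 of the 8 called lower were under 1 CPM in quadriceps.

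Hoxc10 in quadriceps ranged from 86.9 to 165 CPM (median 108, n = 6) and had no count in the 3 iBAT libraries, at least 1.73e+03-fold higher. Hoxa10 ranged from 13 to 16.9 CPM against none, at least 226-fold higher, and Hoxc11 from 1.64 to 3.29 CPM against none, at least 37.6-fold. Hoxc9 had 2186 counts against 1, a ratio of 1.16e+03 (208 to 4.59e+04). Hoxa9 ranged from 5.77 to 7.51 CPM in quadriceps and stood at 0.6, 0.228 and 0.753 CPM in iBAT (log2 difference 3.56 ± 0.30). In the other direction Hoxa5 ranged from 0.816 to 1.95 CPM in quadriceps and stood at 17.6, 15 and 16.1 CPM in iBAT (log2 difference -3.65 ± 0.20, adjusted p = 6.4e-08). Hoxb2 (-3.08 ± 0.41), Hoxa4 (-2.86 ± 0.16), Hoxb4 (-2.85 ± 0.30) and Hoxc5 (-2.13 ± 0.17) were next. Muscle markers summed to 2.65 to 4147 CPM in these iBAT libraries and to 208326 to 377028 CPM in quadriceps.

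Brain and hypothalamus were compared at 22 °C in the largest table. Only Hoxa5 and Hoxb3 passed the filter on low counts, both through brain alone, so they could only be called lower in hypothalamus, as both were (the rule called 28.2% of all genes, 13.1% as lower). Hoxa5, with no count in hypothalamus, was at least 22.6-fold higher in brain, and Hoxb3, also with none, at least 16-fold. Hox genes are used in the embryo from the hindbrain backwards. Brain libraries of this table summed to 41.8 to 78.4 CPM over 5 brainstem markers at both temperatures, the hypothalamus libraries to 0.916 to 2.30 CPM, and the brain libraries of the warm experiment to 1.46 to 11 CPM. In the last, 0 of 39 Hox genes reached 1 CPM and the summed level was 0.158 ± 0.0730 RPKM, against 7.87 ± 3.22 RPKM in the brain of the cold experiment. The 2 brain sets were sequenced with different kits. The labels of the warm set name brain without the hypothalamus, and those of the cold set name brain only. Supplier and age of the mice differ as well, so kit, dissection, supplier and age cannot be told apart.

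One brain library at 22 °C, replicate 2, stood apart with a sum of 56284 CPM over 3 hepatocyte markers, against 1.60 to 8.31 CPM in the other 5 of that comparison. Its summed Hox level was 4.18 RPKM against 9.27 and 10.1 RPKM in the other controls. With it in place 0 of the 8 Hox genes tested were called between 10 °C and 22 °C. Without it 2 were, Hoxa5 and Hoxc5, both lower at 10 °C.

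Hox genes were called with temperature about as often as other genes before adjustment, and less often passed after it. Between temperatures a gene was called where the fold passed 1.5 and the p before adjustment was 0.05 or less. Over the 16 comparisons, 218 tests of a Hox gene were made in 14 of them, 14 tests (6.42%) met the call and 2 (0.917%) had an adjusted p under 0.05, both in iBAT at 34 °C. Over all genes in the same 14 comparisons 5.78% of tests met the call and 4.66% passed after adjustment. Of the 14 calls of a Hox gene 5 lay in pgVAT at 10 °C, where 2 cold libraries were high in epididymal markers. The part of the low counts of many Hox genes in these shares was not tested. No Hox gene was high enough to test in hypothalamus at 10 °C or in brain at 34 °C. At 10 °C no Hox gene was called in iBAT (0 of 21, against 13.2% of all genes), ileum (0 of 18, 2.71%), liver (0 of 2, 3.28%), brain (0 of 8, 2.72%), bone marrow (0 of 5, 1.29%) or spinal cord (0 of 32, 0.271%). At 34 °C none was called in liver (0 of 1, 3.38%). In iBAT 16 of the 21 were estimated lower at 10 °C with a median log2 difference of -0.20, while 47.1% of all genes were estimated higher, and 2 were called lower when counts were scaled by library size alone. In the same libraries the muscle markers summed to 2552 to 5364 CPM at 10 °C and 6620 to 9220 CPM at 22 °C, with 6 of 7 called lower, and the 5 stromal markers to 817 to 1210 CPM and 1312 to 1698 CPM. The brown adipocyte markers summed to 13534 to 17274 CPM and 8084 to 12960 CPM. Epididymal markers summed to 4.70 to 48.7 CPM at 10 °C and 0.459 to 0.615 CPM at 22 °C. The part of these shifts in the iBAT values was not tested.

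**Figure D3:**
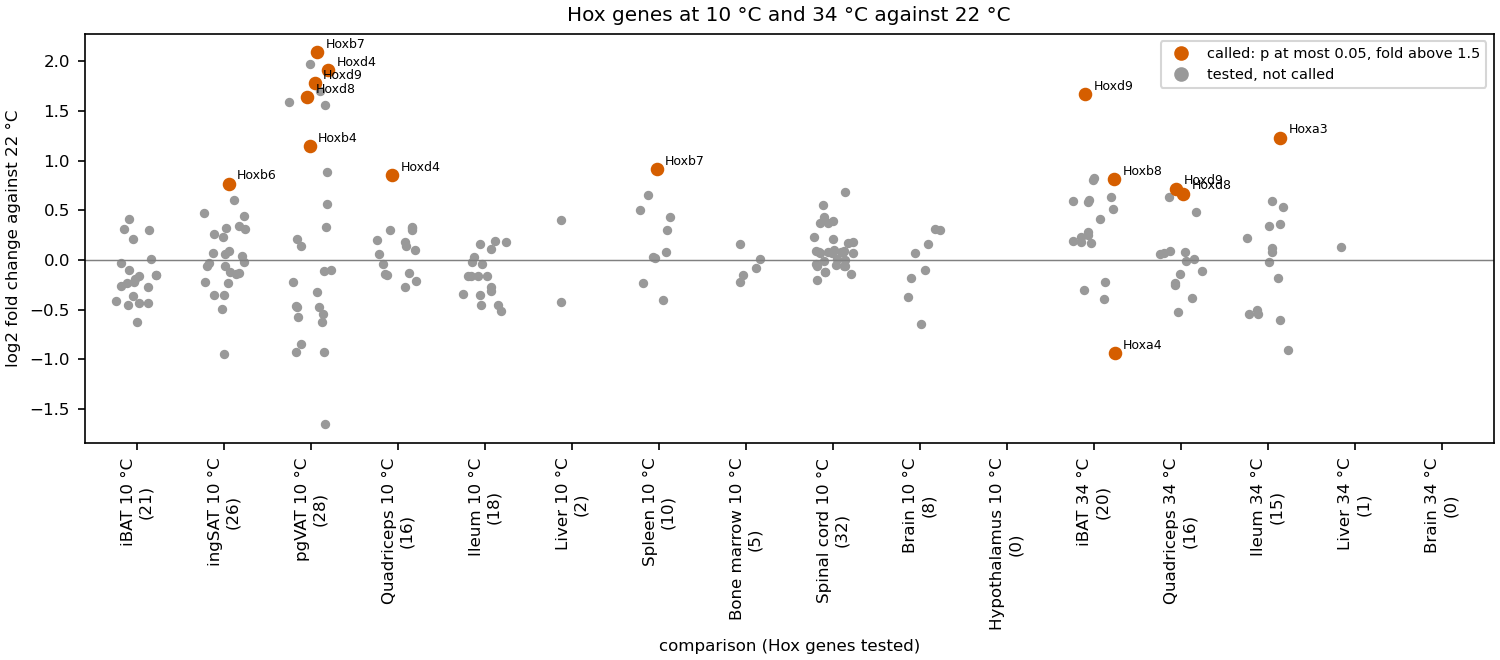
Log2 fold change against 22 °C (y axis) of each Hox gene tested in each temperature comparison (x axis, number tested in brackets). Orange points met the call and are named, and grey points did not. Calls lie in pgVAT, ingSAT, quadriceps and spleen at 10 °C and in iBAT, quadriceps and ileum at 34 °C.

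iBAT at 34 °C held both temperature differences of a Hox gene with an adjusted p under 0.05. Of 20 Hox genes tested 3 were called, where 19.4% of all genes were, and the 2 that passed after adjustment compare with 28.9% of all genes. Hoxa4, one of the genes that lead in iBAT, fell from 26, 17.8 and 27.5 CPM at 22 °C to 13.1, 13.5 and 10.6 CPM at 34 °C. All warm libraries lay below all controls (log2 difference -0.94 ± 0.18, adjusted p = 0.0113 by edgeR), and the adjusted p stayed between 2.4e-05 and 0.0400 in all 10 alternative analyses. Hoxd9, a tailward gene that is low in this depot, rose from 0.442, 0.862 and 0.301 CPM to 2.26, 1.74 and 1.11 CPM (1.67 ± 0.48, adjusted p = 0.0373). Its controls averaged under 1 CPM. It passed the filter on low counts only through the warm libraries, so it could only be called higher. Its groups did not overlap, and 6 of 9 alternatives kept an adjusted p under 0.05 (range 0.0100 to 0.105).

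Hoxb8 met the call with 1.51, 0.921 and 0.958 CPM at 22 °C and 1.72, 2.23 and 1.99 CPM at 34 °C, but its adjusted p was 0.0840. Hoxa5, the neighbour of Hoxa4, was at 26, 21.5 and 23.4 CPM and at 19.6 to 21.3 CPM (-0.22 ± 0.10, adjusted p = 0.144). Hoxc5 stood at 26.7, 18.9 and 17.7 CPM and at 15.6, 16.8 and 15.7 CPM (-0.39 ± 0.16, adjusted p = 0.107). Groups did not overlap for 10 of the 20, against 48.6% of all genes. Of the 20, 16 were estimated higher at 34 °C with a median of 0.35, while 52.2% of all genes were. Under scaling by library size alone, which moves the median of all genes by 0.30, 10 Hox genes were called, 9 higher and Hoxa4 lower, and Hoxa5 turned to 0.05.

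Composition moved in the same libraries. The 5 brown adipocyte markers summed to 10719 to 14382 CPM at 22 °C and 5900 to 7281 CPM at 34 °C, and the 5 stromal markers to 919 to 1467 CPM and 1675 to 1847 CPM. Muscle markers ran from 3.90 to 5934 CPM at 22 °C and from 1277 to 4745 CPM at 34 °C. The part of these shifts in the Hox values was not tested. In the separate iBAT samples at 10 °C Hoxa4 was at 8.21, 8.97 and 10.9 CPM against 9.67, 10.3 and 11.1 CPM at 22 °C, with overlapping groups and no call (-0.15 ± 0.16, adjusted p = 0.588). Hoxa4 shares 16% of its exon bases with an antisense gene, Gm29430.

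In ingSAT at 10 °C Hoxb6 was the 1 gene called of 26 tested, where 16.3% of all genes were called. It rose from 6.59, 7.31 and 5.74 CPM to 13.3, 9.58 and 10.7 CPM with no overlap (32.8% of all genes did not overlap), a log2 difference of 0.77 ± 0.20 and an adjusted p of 0.0658, where 7.51% of all genes passed 0.05. The genes that lead in this depot overlapped between temperatures: Hoxc8 at 60.3, 40.3 and 50.1 CPM against 44.0, 57.0 and 63.9, and Hoxc10 at 16.7, 11.8 and 14.1 CPM against 16.4, 13.9 and 10.8. The median of the 26 was 0.01 against -0.01 over all genes. In the same libraries brown adipocyte markers summed to 2238 to 2856 CPM at 10 °C and 154 to 208 CPM at 22 °C, and the 5 stromal markers to 2564 to 4761 CPM and 3998 to 17720 CPM, with 4 of 5 called lower. The part of these shifts in the ingSAT values was not tested.

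In pgVAT at 10 °C 5 of 28 Hox genes were called, all higher, where 7.94% of all genes were called, 4.46% as higher. No gene of any kind had an adjusted p under 0.05 by edgeR (0% of all genes). The 5 were Hoxb7, Hoxd4, Hoxd9, Hoxd8 and Hoxb4, each with an adjusted p of 0.593, and all had overlapping groups (11.8% of all genes did not overlap). The difference lay in 2 of the 3 cold libraries. Hoxd4 was at 203, 25.2 and 140 CPM in replicates 1, 2 and 3 at 10 °C against 32, 32.7 and 33 CPM at 22 °C. Hoxd8 was at 111, 30.6 and 180 CPM against 36.8, 38.8 and 27.4, and Hoxb7 at 42.7, 5.42 and 77.3 CPM against 13.6, 6.79 and 8.69. In each case replicates 1 and 3 stood above all controls, and replicate 2 stood below them for Hoxd4 and Hoxb7 and within their range for Hoxd8.

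Hoxb9 (24.7, 2.04 and 44.6 CPM against 9.57, 7.76 and 6.73) and Hoxd3 (53.1, 2.39 and 29.5 CPM against 9.32, 5.27 and 6.95) had the same shape without a call. Hoxc8, the leading gene of the depot, had the opposite one, 37.2, 89.5 and 35.9 CPM against 77.6, 133 and 98.8 CPM, and Hoxa5 showed 14, 14.1 and 8.84 CPM against 12.1, 13.7 and 14.1 CPM. The 8 epididymis and vas deferens markers, such as Lcn5 and Adam7, summed to 26506, 5.21 and 29730 CPM in the same 3 cold libraries and to 2896, 999 and 894 CPM in the controls. The 5 adipocyte markers summed to 12250, 27997 and 8726 CPM at 10 °C and to 18617 to 31072 CPM at 22 °C.

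Hoxb4, the last of the 5, was at 51.6, 16 and 30.8 CPM against 17.4, 14 and 12.8 CPM, so replicate 2 lay within the range of the controls. Without replicate 2, 13 Hox genes were called. The count was 1 without replicate 1, 0 without replicate 3, 1 without control replicate 1, and 0 without control replicate 2 or 3. The part of epididymal RNA in the pgVAT values at 10 °C was not tested.

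**Figure D4:**
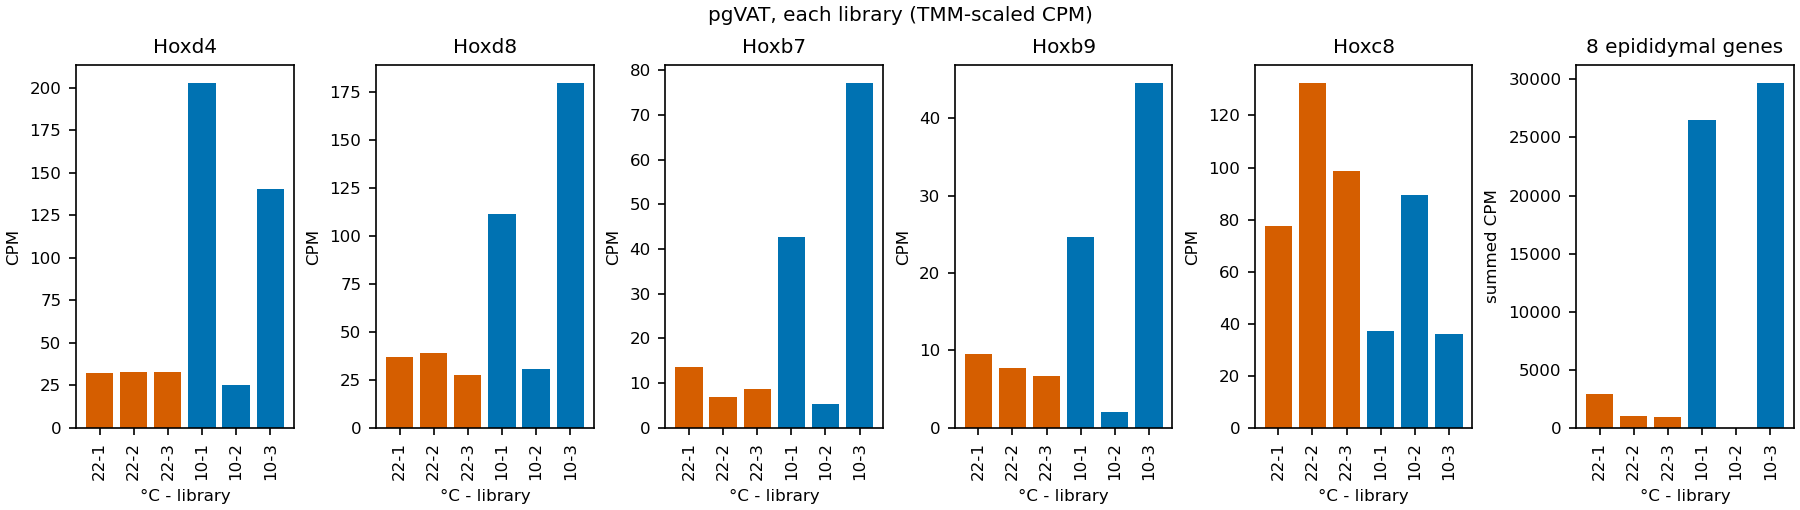
TMM-scaled CPM of 5 Hox genes and summed CPM of 8 epididymal genes (y axes) in each pgVAT library (x axis, 22 °C in orange, 10 °C in blue). Hoxd4, Hoxd8, Hoxb7 and Hoxb9 are high in the 2 cold libraries with epididymal sums of 26506 and 29730 CPM, and Hoxc8 is low there.

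Quadriceps at both temperatures was compared with the same 6 controls. At 10 °C Hoxd4 was called (1 of 16, against 3.35% of all genes), with 2.33, 0.985 and 1.32 CPM against 0.413 to 1.19 CPM. Its controls averaged under 1 CPM. Hoxd4 passed the filter on low counts only through the cold libraries, so it could only be called higher. Replicate 1, the highest, also had a sum of 202 CPM over the epididymal markers, against 0.0668 and 0 CPM in the other cold libraries and 0.0191 to 0.125 CPM in the controls, and without it no Hox gene was called. The call was also lost without control replicates 1, 5 or 6. It was lost too with only the 3 controls whose column names share a prefix with the cold libraries. Those 3 are the likely controls of the cold experiment, so the Hoxd4 call depends on pooling all 6. At 34 °C Hoxd8 and Hoxd9 were called (2 of 16, against 1.25% of all genes). Hoxd8 was at 5.59, 6.09 and 12.4 CPM against 4.2 to 5.48 CPM, and Hoxd9 at 3.30, 3.42 and 7.60 CPM against 2.54 to 3.23 CPM. Groups did not overlap for either (3.79% of all genes), but replicate 3 was far above the rest, as it was for their neighbour Hoxd10 (3.19 CPM, all others at most 0.646), and without it neither was called, while Hoxc5 was.

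Hoxc10, which makes up most of the Hox RNA of quadriceps, was not called at either temperature. It was at 89.0, 79.4 and 104 CPM at 10 °C against 78.9 to 147 CPM at 22 °C (log2 difference -0.15 ± 0.18, adjusted p = 0.752). On the scale of the warm comparison it was at 78.0, 102 and 71.0 CPM at 34 °C against 76.5 to 142 CPM (-0.23 ± 0.19, adjusted p = 0.998). Hoxa10 overlapped between temperatures too, with 13.2, 15.6 and 15.6 CPM at 10 °C against 11.7 to 15.2 CPM.

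Spinal cord gave the finest view of the clusters, because each library was 1 mouse and 33 of the 39 genes reached 1 CPM at 10 °C. None of the 32 tested was called at 10 °C. Hoxd9 was the only one whose groups did not overlap (1.61% of all genes), at 25.9 to 31.1 CPM with a median of 28.6 at 10 °C and 13.8 to 24.6 CPM with a median of 24 at 22 °C, yet its adjusted p was 0.780. Of the 10 genes tested of groups 9 to 13, 9 were estimated higher at 10 °C with a median log2 difference of 0.38, and of the 22 of groups 1 to 8, 13 were, where 50.1% of all genes were. One control, numbered 6 in the table, was the lowest of the controls for all genes tested of groups 10 to 12. Without it 9 of 11 were estimated higher in groups 9 to 13 and the median was 0.21. The number 6 is in no sample title, so this library is tied to the 22 °C group but not to a titled sample.

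Genes of groups 10 to 12 varied between mice far more than the rest. At 22 °C the coefficient of variation over 5 mice had a median of 9.54% for the 22 expressed genes of groups 1 to 8, 9.98% for the 4 of group 9 and 65.1% for the 6 of groups 10 to 12. At 10 °C the medians were 9.95%, 10.3% and 52.1%. In the control numbered 6 (replicate 6) Hoxd10 was at 0.674 CPM and at 12.2 to 27.9 CPM in the other 4 controls, and Hoxd11 was at 0.0375 CPM against 1.37 to 12.7. Hoxc10 was at 35.7 CPM against 59.7 to 76.5 CPM, while Hoxb8 was at 175 CPM, inside the range of 168 to 188 CPM of the other 4.

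Other mice showed the same order to a lesser degree. In the 22 °C replicate 4 Hoxc11 was at 0.282 CPM and Hoxd11 at 1.37 CPM, and in the 10 °C replicate 3 they were at 0.254 and 0.871 CPM, while in 10 °C replicate 1 they reached 4.01 and 15 CPM. The share of summed Hox RPKM from groups 9 to 13 ran from 24.2% in the 22 °C replicate 6 to 41.5% in the 10 °C replicate 1. Motor neuron markers, 4 genes, summed to 127 to 154 CPM at 22 °C and 106 to 162 CPM at 10 °C. How much of the tail end of the cord each sample held is not recorded in the sources used here and was not tested.

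**Figure D5:**
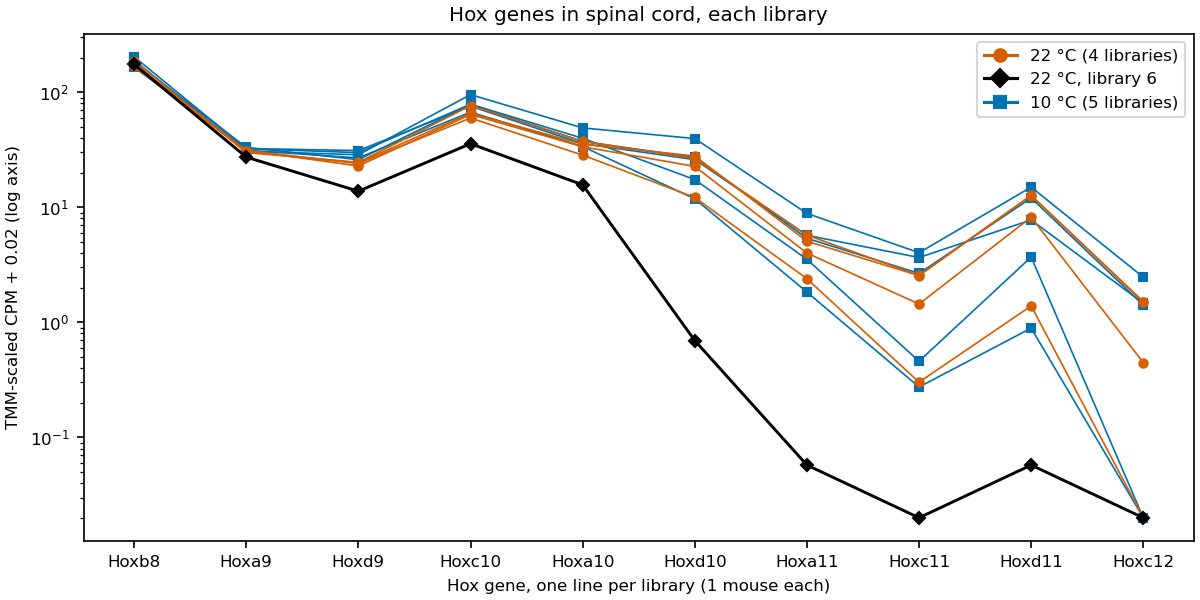
TMM-scaled CPM + 0.02 on a log axis (y) for 10 Hox genes from group 8 to group 12 (x) in spinal cord, one line per mouse. Lines lie close together at Hoxb8 and Hoxa9 and fan out from Hoxd10 onward, with the 22 °C replicate 6 (black) at 0.674 CPM for Hoxd10 and 0 for Hoxc11.

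In ileum at 34 °C 1 of 15 Hox genes was called (2.83% of all genes), Hoxa3, at 0.795, 2.11 and 1.62 CPM against 0.475, 0.862 and 0.587 CPM with overlapping groups and an adjusted p of 0.594. All its controls were under 1 CPM. Hoxa3 passed the filter on low counts only through the warm libraries, so it could only be called higher. The leading genes varied between warm libraries. Hoxb9 was at 39.3, 5.62 and 22.3 CPM at 34 °C and at 38.1, 37.7 and 49.8 CPM at 22 °C, and Hoxb6 at 18, 4.53 and 13.8 CPM against 19.3, 14.1 and 21.7 CPM, neither called. In warm replicate 2 groups 9 to 13 made up 10.3% of summed Hox RPKM, against 27.8 to 34.3% in the controls. The 4 B cell markers summed to 128, 3.05 and 3.91 CPM in the warm libraries and to 49.4 to 302 CPM in the controls, and the 4 intestinal epithelium markers to 7773, 15450 and 13873 CPM against 7853 to 10384 CPM. Warm replicate 2, the lowest for both Hox genes, was the lowest of all 6 libraries in the B cell sum and the highest in the epithelial sum. It was also the highest in the sum of 4 intestinal smooth muscle markers. That sum was 1332, 1811 and 1146 CPM in the warm libraries and 633 to 1569 CPM in the controls. The part of these cells in the Hox values was not tested. Leaving out warm replicate 1 gave 5 calls, and leaving out warm replicate 2 or 3 or control replicate 1 or 3 gave 0. At 10 °C the ileum values lay close together, with Hoxb6 at 50.2, 44.5 and 44.6 CPM against 42.0, 44.7 and 38.4 CPM and Hoxb9 at 41.1, 38.9 and 35.3 CPM against 46.3, 38.7 and 34.1 CPM.

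In spleen at 10 °C Hoxb7 was called (1 of 10, against 2.68% of all genes), at 1.12, 1.51 and 2.14 CPM against 1.07, 0.462 and 0.901 CPM. Its controls averaged under 1 CPM. Hoxb7 passed the filter on low counts only through the cold libraries, so it could only be called higher. The groups did not overlap (15.7% of all genes) but its adjusted p was 0.487, and it was not called without cold replicate 2 or 3 or control replicate 2, while 4 genes were called without control replicate 1. Hoxb4, the leading gene, was at 6.86, 6.89 and 7.55 CPM against 7.74, 6.24 and 6.99 CPM. In bone marrow Hoxb4 ranged from 5.76 to 8.75 CPM with a median of 6.18 at 10 °C and from 6.41 to 8.94 CPM with a median of 7.36 at 22 °C, overlapping, with an adjusted p of 0.199.

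An effect of cold on a Hox gene in one depot and not in another was tested as an interaction in the 12 libraries of each pair of depots. None of 25, 26 and 27 genes tested passed an adjusted p of 0.05 for ingSAT against iBAT, pgVAT against iBAT and pgVAT against ingSAT by edgeR, with 1, 5 and 3 at an unadjusted p of at most 0.05, where 21.8%, 12.5% and 10.4% of all genes were. Of all genes 3.55%, 0.0835% and 0% passed after adjustment. The lowest adjusted p of these was 0.190.

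Cofactors and regulators of Hox genes were read from fixed lists. TALE proteins (Pbx, Meis and Pknox) bind DNA together with Hox proteins. At 22 °C 2 of 8 were called higher in ingSAT than in iBAT, among them Meis3 (2.11 CPM in iBAT and 10.4 CPM in ingSAT, log2 difference 2.30 ± 0.24), and none was lower, where 24.4% of all genes were higher and 19.8% lower. Against iBAT 3 of 9 were higher in pgVAT (25.4% of all genes) and none lower (21.9%), among them Meis3 and Meis1 (17.3 and 39.5 CPM, 1.20 ± 0.20). In quadriceps against iBAT 3 were called higher (30.1% of all genes) and 2 lower (30.6%) of 8, among them Pknox2 at 55.7 CPM in quadriceps and 0.494 CPM in iBAT (6.83 ± 0.47). Pknox2 passed the filter on low counts only through quadriceps, which fixed its direction. With temperature the list moved at an adjusted p under 0.05 in bone marrow only, of the 16 comparisons, and by less than 1.5-fold, among others with Pbx2 (-0.26 ± 0.06) lower and Pbx3 (0.29 ± 0.08) higher at 10 °C, where 19% of all genes passed.

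Polycomb proteins keep Hox clusters silent and Trithorax proteins keep them active. Of 21 such genes tested in iBAT at 10 °C, 1 was higher and 3 lower at an adjusted p under 0.05, where 11.3% of all genes passed: Bmi1 (43.9 to 83.3 CPM, log2 difference 0.93 ± 0.16), Ezh1 (-0.67 ± 0.13), the demethylase gene Kdm6b (-0.82 ± 0.14) and Kmt2a (-0.37 ± 0.10). In iBAT at 34 °C 5 were higher and 1 lower of 19, where 28.9% of all genes passed. Bmi1 fell from 35.4 to 21.9 CPM (-0.69 ± 0.09) and Ezh1 rose from 67.6 to 93.9 CPM (0.47 ± 0.10), and Cbx2 (1.55 ± 0.18), Cbx7 (0.78 ± 0.11), Cbx6 (0.66 ± 0.11) and Ring1 (0.49 ± 0.09) rose too. In ingSAT at 10 °C Ezh1 was lower (-0.48 ± 0.11), 1 of 21 where 7.51% of all genes passed. In bone marrow at 10 °C 4 of 19 passed, against 19% of all genes, and Cbx2 (0.36 ± 0.08) and Cbx6 (0.27 ± 0.05) were higher and Kdm6b (-0.29 ± 0.08) lower. None passed in the other 12 temperature comparisons. The muscle, stromal and brown adipocyte markers of the iBAT and ingSAT libraries moved as given above, in bone marrow 3 of 4 B cell markers were higher after adjustment, and their part in these values was not tested.

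Other transcription factors that mark position were read from a list as well. Of 10 tested, 5 were called higher in pgVAT than in iBAT at 22 °C (25.4% of all genes) and 4 lower (21.9%). Tbx15, a T-box gene of the trunk, was at 28.1 CPM in iBAT and 0.484 CPM in pgVAT (log2 difference -6.09 ± 0.43, adjusted p = 9.3e-06), and Tbx5, a forelimb gene, at 9.03 and 0.475 CPM (-4.77 ± 0.66). Wt1, a gene of the visceral lining, had no count in iBAT and 940 in pgVAT. Tbx15, Tbx5 and Wt1 passed the filter on low counts only through the depot where they were high, which fixed their direction. All 7 muscle markers were also called lower in pgVAT than in iBAT (21.9% of all genes). The part of muscle RNA in these values, Tbx15 among them, was not tested. In ingSAT against iBAT 5 of 9 were higher (24.4% of all genes), among them Shox2 (2.66 and 22.3 CPM, 3.05 ± 0.29), and 2 were lower (19.8%). In quadriceps against iBAT 4 of 5 were higher (30.1% of all genes) and 1 lower (30.6%), with Tbx15 at 356 CPM against 4.18 CPM and the hind limb gene Tbx4 at 2.67 CPM against 2 counts in all. Tbx4 passed the filter only through quadriceps, which fixed its direction. With temperature only En1 in ingSAT at 10 °C passed (3.10 to 1.21 CPM, -1.34 ± 0.30, adjusted p = 0.0448), in the libraries whose stromal markers were also lower. The caudal genes Cdx1, Cdx2 and Cdx4, which act upstream of Hox genes in the embryo, were high enough to test only in ileum, 2 of 3 at each temperature, with no call.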

How the data were processed

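The authors aligned reads to mm10 with STAR and counted them per gene with HTSeq, and the deposited values are raw counts, used here without scaling before the fit. Strand handling is not given in the sources used here. Samples were grouped by GEO titles, since the treatment protocol names 34 °C on every sample. The members and all gene lists were chosen with earlier results of these data known. Fits were made with edgeR 4.0.16 in R 4.3.3 (TMM scaling, genes with an average log2 CPM above 0, quasi-likelihood F-test, two-sided), using for each comparison only the libraries compared, all from one table. p-values were adjusted by Benjamini-Hochberg over all genes tested in a comparison, not across the 24 comparisons. They measure the spread between libraries, most of which pool mice.

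Levels at 22 °C are CPM and RPKM on library totals and on union exon length from GENCODE M21 (GRCm38). Values were printed for the 3 highest Hox genes per tissue, each gene called with temperature, the 5 largest changes each way among the genes called between tissues at 22 °C, and list genes with an adjusted p under 0.05. Genes printed beside these (Hoxa5, Hoxc5, Hoxc8, Hoxb9, Hoxd3, Hoxd10 and others) were added after their values were seen. Alternatives were the exact test, DESeq2 1.42.0, library size only, no filter, each library left out, a replicate block, 3 quadriceps controls, one fit over all 22 °C libraries, and 0.5 CPM. Tested on simulated data, the fit of iBAT at 10 °C (12812 genes) recovered 95% of 2-fold and 100% of 4-fold changes. A few members, list genes and sequences are not reported here and are left out of the plots that name genes or place them by paralog group.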

Additional observations from a re-analysis of the deposited data

Results flagged for a closer look

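In groups of 4 to 10 libraries, 90 pairs of a Hox gene and a group were checked for a library far from the others, and 8 were found, where chance flags about 1 in 20. All values are TMM-scaled CPM. In spinal cord at 22 °C replicate 6 was the lowest for Hoxd9, at 13.8 CPM, and the highest for Hoxa5, at 22.6 CPM. At 10 °C replicate 4 was high for Hoxb6 at 66.2 CPM.

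In bone marrow at 22 °C replicate 3 was high for Hoxa7 at 2.24 CPM and replicate 6 was high for Hoxb3 at 2.46 CPM. At 10 °C replicate 5 was low for Hoxa7 at 1.39 CPM and replicate 4 was high for Hoxb4 at 8.75 CPM. In quadriceps at 22 °C replicate 1 was high for Hoxc10 at 147 CPM, on the scale of the 10 °C comparison. The part of depth or cell content in these values was not tested.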

How the results depend on the processing

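Of 278 alternative counts of called Hox genes 222 were within 1.5 times the reported count, 32 were lower and 24 higher. Among 941 alternative values of single genes 834 kept their direction and their side of the threshold, 83 lost a call, 19 gained one and 5 changed sign. Without the filter on low counts the calls were 13 in pgVAT, 3 in quadriceps, 2 in bone marrow and 1 in brain at 10 °C, 4 in quadriceps and 2 in ileum at 34 °C, and 15 for hypothalamus against brain. One fit over all 22 °C libraries gave 19 for the last. With DESeq2 the counts were 10 in pgVAT, 0 in spleen and 16 for pgVAT against ingSAT at 10 °C. Library size only gave 2 in iBAT at 10 °C and 10 in iBAT at 34 °C, where Hoxa5 changed sign to 0.0527. With the 3 controls of one prefix quadriceps at 10 °C gave 0. With both pgVAT libraries high in epididymal genes left out, a choice made after seeing the data that leaves 1 cold library, assumed to vary like the other group, pgVAT against ingSAT at 10 °C gave 4, and Hoxb7 (-0.837), Hoxd4 (-0.349), Hoxd8 (-0.149) and Hoxd9 (-0.334) changed sign between temperatures, which restates that the libraries left out were the high ones. The cause of the other changes was not tested.

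Leaving out single libraries gave 0 to 1 calls in iBAT, 1 to 2 in ingSAT, 0 to 13 in pgVAT, 0 to 1 in quadriceps, 0 to 2 in ileum, 0 to 4 in spleen and 0 to 2 in brain at 10 °C. It gave 2 to 6 in iBAT, 1 to 3 in quadriceps and 0 to 5 in ileum at 34 °C. Between tissues it gave 7 to 11 for pgVAT against ingSAT and 1 to 3 for hypothalamus against brain at 22 °C, and 4 to 19 for pgVAT against iBAT and 0 to 16 for pgVAT against ingSAT at 10 °C. In ingSAT at 10 °C each of the counts of 2 came without cold replicate 2, control replicate 1 or control replicate 2, in iBAT at 34 °C the count of 6 came without control replicate 1, in iBAT at 10 °C the count of 1 came without control replicate 3, and in ileum at 10 °C the count of 2 came without cold replicate 1.

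Replicate numbers did not pair the libraries: in 0 of 17 comparisons were all correlations of same-numbered libraries above 0.1 (range -0.689 to 0.429). A replicate block lowered the pgVAT count at 10 °C from 5 to 2 and kept every other count within 1.5 times. At 0.5 CPM in place of 1 CPM the expressed genes were 13 in spleen, 13 in brain, 4 in liver and 1 in the liver of the warm experiment. Leaving out single libraries gave 0 to 1 for the last and 5 to 9 for brain. Depth limits the genes near 1 CPM most in pgVAT at 22 °C, whose smallest library held 4262403 counts.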
